A study of Homo sapiens with 6 samples.

Results

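Immune checkpoint ligands are surface proteins through which a cell inhibits or stimulates the lymphocytes and macrophages that touch it. The 10 ligands described here were taken by gene symbol from the 37887 symbols of the count table, with no cutoff on their values but with earlier results of these data known: CD274, PDCD1LG2, CD276, VTCN1, ICOSLG, CD80, CD86, PVR, NECTIN2 and CD47. They were measured by RNA-seq in BT-549, an established human triple-negative breast cancer (TNBC) cell line, in 3 control and 3 IRF1shRNA samples. Control cells were given vehicle (0.1% DMSO), and IRF1shRNA cells were given doxycycline (DOX, 500 ng/ml), which switches on a short hairpin RNA (shRNA) against IRF1 from a stably carried vector. By the design text both groups are the same line with the inducible IRF1 shRNA, although the titles of the control samples refer to a control shRNA. Since no control sample received DOX, the drug and the hairpin cannot be told apart as sources of a difference, and the series holds 1 IRF1 shRNA in 1 cell line. If the titles hold instead, the groups are separately transduced cells, and a difference between those could not be told apart either.

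CD274 (PD-L1) and PDCD1LG2 (PD-L2) bind PD-1 and restrain T cells. CD276 and VTCN1 are further members of the B7 family with mostly inhibitory effects, whereas CD80 and CD86 engage CD28 and CTLA-4, and ICOSLG engages the costimulatory receptor ICOS. PVR and NECTIN2 are adhesion molecules recognised by TIGIT and CD226, and CD47 is the signal that keeps macrophages from engulfing a cell by binding SIRPA. IRF1 is a transcription factor that interferons (IFN) induce, and CD274 is a well known IFN gamma target in tumour cells. The comparison therefore asks how the transcripts of these ligands change when IRF1 is silenced in cells for which the labels name no IFN treatment.

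Total counts ranged from 55143808 in IRF1shRNA replicate 2 to 160436234, and expression is given as CPM, the share of a library's counts scaled to a common total, with TMM scaling, as mean ± SD of 3 samples. IRF1 itself measured 45.3, 48.1 and 51.5 CPM in the control and 13.8, 14.9 and 14.6 CPM in the IRF1shRNA samples, or 29.9% of control (log2 fold change -1.74 ± 0.06, edgeR adjusted p = 4.53e-13). The epithelial markers EPCAM and CDH1 stayed at or below 0.802 CPM and ESR1 at or below 0.144 CPM, whereas VIM reached at least 593 CPM in every sample. ERBB2, listed as low in this line, was present at 35.0 to 54.8 CPM. Of the 14 leukocyte and endothelial markers, MS4A1 had no count in any sample and CD3E had none in 5 of 6 samples. The sum of the 14 markers was 2.59 to 2.74 CPM in the control and 3.91 to 5.21 CPM in the IRF1shRNA samples. CD14 rose from 1.09 ± 0.135 to 2.22 ± 0.189 CPM and CD4 from 0.463 ± 0.006 to 0.844 ± 0.263 CPM (edgeR adjusted p = 1.43e-05 and 0.0102), whereas CD163 went from 0.356 to 0.532 CPM with an adjusted p of 0.0709. PTPRC, the pan-leukocyte marker, measured 0.526 ± 0.032 CPM in the control and 0.481 ± 0.243 CPM in the IRF1shRNA samples (log2 fold change -0.24 ± 0.30, edgeR adjusted p = 0.549), and the other 10 markers did not pass the filter on low counts. The part of these cells or transcripts in the ligand values was not tested.

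Among the ligand promoters searched for IFN and NF-kappaB elements, that of CD274 alone held a match, and it is shown first for that reason. RefSeq promoters on GRCh38.p14, reaching from 250 bases before to 50 bases after the start, matched 9 of the 10 ligands and gave 11 promoters in all. PDCD1LG2 is named only. The 250 bases before the start are printed 5′ to 3′ on the strand of the gene for CD274 (chr9:5450292-5450541, plus strand), ICOSLG (chr21:44240944-44241193, minus strand) and CD47 (chr3:108091032-108091281, minus strand), with motif matches in capitals.
CD274: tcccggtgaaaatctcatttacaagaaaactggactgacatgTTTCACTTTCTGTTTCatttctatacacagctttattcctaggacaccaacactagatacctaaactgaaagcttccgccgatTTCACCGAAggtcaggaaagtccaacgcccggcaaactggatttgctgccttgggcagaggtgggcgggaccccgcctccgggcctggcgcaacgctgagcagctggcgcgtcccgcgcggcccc
ICOSLG: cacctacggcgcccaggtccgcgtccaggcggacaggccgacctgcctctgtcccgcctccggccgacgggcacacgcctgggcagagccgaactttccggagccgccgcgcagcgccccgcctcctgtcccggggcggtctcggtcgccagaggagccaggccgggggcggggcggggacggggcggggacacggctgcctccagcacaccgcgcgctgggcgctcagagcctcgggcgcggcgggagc
CD47: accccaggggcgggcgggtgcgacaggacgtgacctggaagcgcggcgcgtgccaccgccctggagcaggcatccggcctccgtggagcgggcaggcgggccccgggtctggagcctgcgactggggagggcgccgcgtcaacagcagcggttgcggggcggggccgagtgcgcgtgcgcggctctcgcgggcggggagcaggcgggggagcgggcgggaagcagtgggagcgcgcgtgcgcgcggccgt
The first run of capitals in CD274 holds 2 overlapping matches to the IRF element core GAAANNGAAA, both read on the minus strand, at -208 to -199 and -202 to -193 from the start. The second run is a match to the gamma-activated sequence TTCNNNGAA, an element of IFN gamma target promoters, at -125 to -117, and as a palindrome it reads on both strands. GAAANNGAAA occurred in 3.57% and TTCNNNGAA in 7.66% of 35116 promoters of the same length, searched on both strands. The kappaB letters GGGANTTTCC, found in 0.558% of promoters, were in none of the 11 promoters. ICOSLG and CD47, both described below as lower after IRF1 silencing, are shown as promoters that hold none of these letters in this window. A match is a description of the letters and not of binding, which was not measured in these files.

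The ligands differed widely in abundance. Between genes, levels are compared as CPM per kilobase of annotated exon (CPM per kb). In control cells PVR was highest at 41.8 ± 1.32 CPM per kb, followed by CD47 at 27.4 ± 0.272, NECTIN2 at 19.7 ± 1.803 and CD276 at 10.99 ± 1.25 CPM per kb. PDCD1LG2 came next at 3.63 ± 0.143 CPM per kb, then CD274 at 1.26 ± 0.143 and ICOSLG at 0.145 ± 0.005 CPM per kb. Each of these neighbours was separated from the next without overlap between samples, in the control and in the IRF1shRNA group alike. The order of the 7 was the same in the IRF1shRNA samples, at 44.2, 22.1, 19.6, 7.08, 2.81, 0.973 and 0.073 CPM per kb in that sequence. PD-L2 transcripts therefore exceeded PD-L1 transcripts per length in every sample. On this per-length scale PVR stood at the 94.3 percentile of the tested genes with an annotated exon length in control cells and CD274 at the 41.2 percentile.

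**Figure D1:**
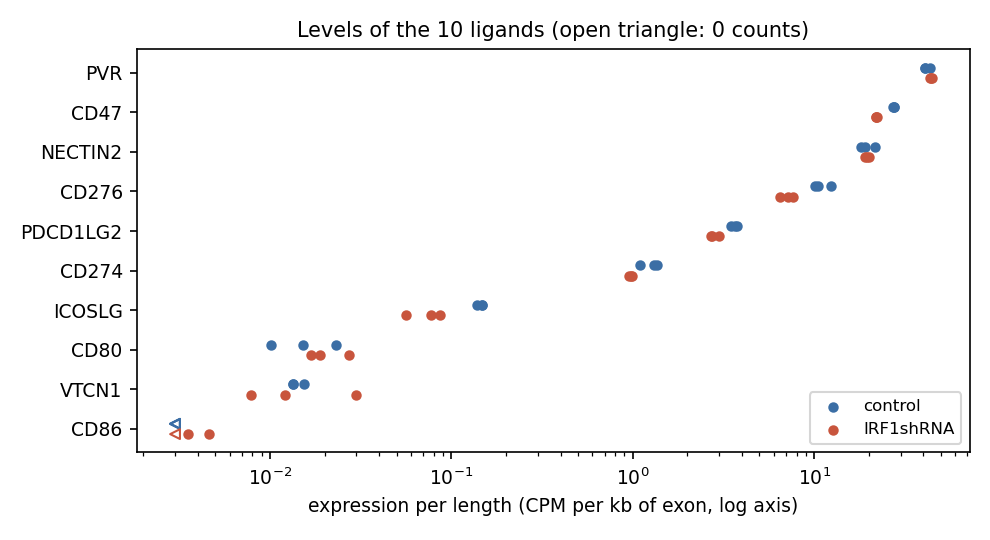
Levels of the ligands in CPM per kb of exon (log axis), with 1 point per control and IRF1shRNA sample. PVR, CD47, NECTIN2 and CD276 lie highest, PDCD1LG2 lies above CD274 in all 6 samples, and CD80, VTCN1 and CD86 lie lowest.

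The other 3 ligands were at the edge of detection. VTCN1 had 5, 5 and 7 counts in the control and 3, 5 and 6 in the IRF1shRNA samples. CD80 had 6, 4 and 11 counts in the control and 11, 3 and 10 in the IRF1shRNA samples. CD86 had no count in any control sample and 2, 0 and 2 counts in the IRF1shRNA samples. A floor of 3 counts over the control group corresponds to 0.0076 CPM, which is too low a limit if read mates were counted separately. A level of 3 counts corresponds to 0.0182 to 0.0540 CPM, depending on the library. None of these ligands passed the filter on low counts, so they were not tested, and no difference was detectable at this depth. In the exons of CD80, 24.9% of the bases lie opposite TIMMDC1, a further limit on its few counts.

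Of the 7 ligands that passed the filter, CD274, PDCD1LG2, CD276, ICOSLG and CD47 were downregulated in the IRF1shRNA samples relative to control. None was upregulated, and PVR and NECTIN2 did not pass the threshold (quasi-likelihood test of edgeR, Benjamini-Hochberg adjusted p below 0.05 over 18851 genes). These 5 of 7 stand beside a background in which 50.5% of all genes tested were called in either direction, 26.4% as lower and 24.1% as higher. The median log2 fold change of the 7 was -0.37, against -0.0024 over all genes tested. No ligand passed both the test and a 2-fold change, as did 7.86% of all genes. The CPM of the groups did not overlap for the 5 called ligands and for PVR, where 56.8% of all genes had groups without overlap. In bulk RNA, fewer cells expressing a transcript and less transcript per cell cannot be told apart.

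**Figure D2:**
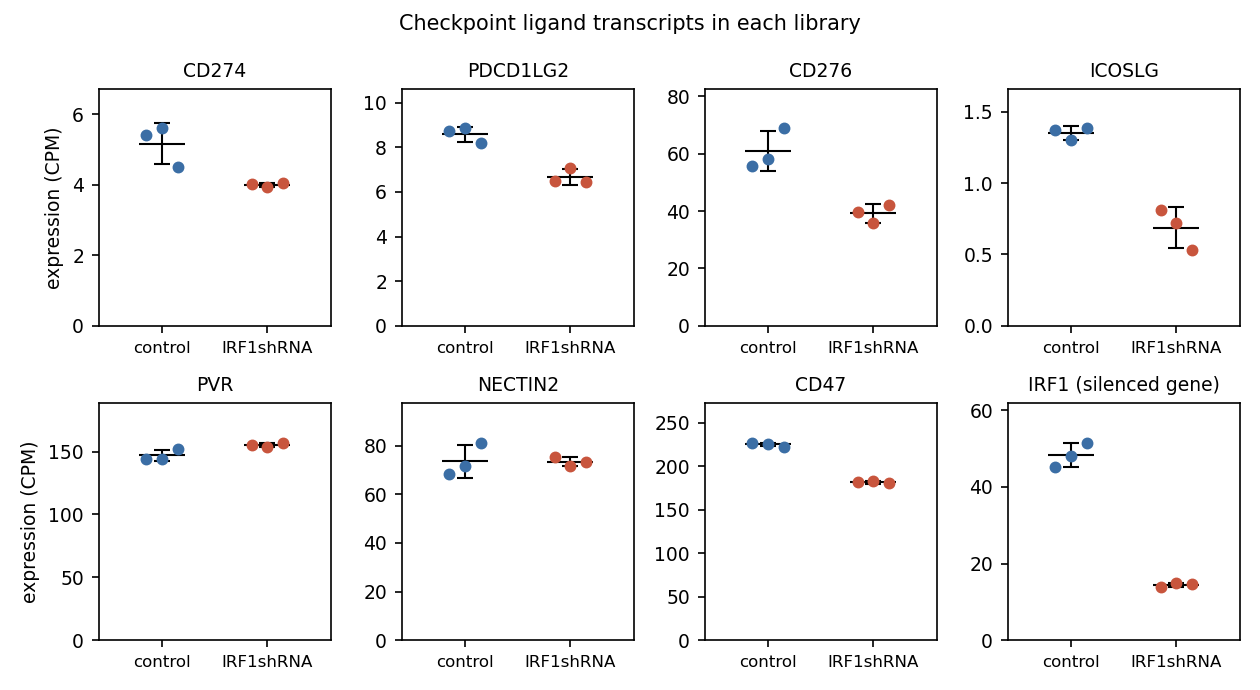
CPM of each tested ligand in the 3 control and 3 IRF1shRNA samples, with bars at the group means and SD. The samples separate without overlap for CD274, PDCD1LG2, CD276, ICOSLG, CD47 and, in the upward direction, PVR, whereas those of NECTIN2 overlap.

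The PD-1 ligands fell by nearly the same amount. CD274 measured 5.40, 5.59 and 4.49 CPM in the control and 4.01, 3.93 and 4.05 CPM in the IRF1shRNA samples. The control samples were spread more widely, with control replicate 3 lowest, yet all lay above the IRF1shRNA samples. The mean went from 5.16 ± 0.587 to 3.996 ± 0.063 CPM, or 77.4% of control, with a log2 fold change of -0.37 ± 0.10 (SE, 95% interval -0.57 to -0.16, edgeR adjusted p = 0.00460). Without control replicate 3 the log2 fold change was -0.45, and without control replicate 2 it was -0.30.

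PDCD1LG2 measured 8.71, 8.84 and 8.20 CPM in the control and 6.47, 7.06 and 6.42 CPM in the IRF1shRNA samples. Its mean went from 8.58 ± 0.339 to 6.65 ± 0.357 CPM, or 77.5% of control (log2 fold change -0.37 ± 0.08, 95% interval -0.54 to -0.21, edgeR adjusted p = 5.83e-04). The ratio of CD274 to PDCD1LG2 CPM within a library was 0.6005 ± 0.046 in the control and 0.602 ± 0.040 in the IRF1shRNA samples, and the ranges overlapped (exact permutation test, two-sided, p = 1, adjusted p = 1 over 4 ratios). With 3 against 3 samples the smallest p that this test can give is 0.1.

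CD274 and PDCD1LG2 are neighbours on chromosome 9, at chr9:5450503-5470566 and chr9:5510570-5571254 on the plus strand (GENCODE release 29, GRCh38). Among the 27 listed genes with midpoints within 500 kb of the start of CD274, 21 were tested. CD274 and PDCD1LG2 were the only 2 called lower and 4 were called higher, beside 26.4% lower and 24.1% higher over all genes tested. Most of the 21 were pseudogenes with few counts, where a call was unlikely, such as MTCO2P11 at 0.118 CPM in the control (log2 fold change -0.23 ± 0.61). RIC1 (77.2 to 109.9 CPM, log2 fold change 0.51 ± 0.04, edgeR adjusted p = 1.04e-08), ERMP1 (0.24 ± 0.04, 9.20e-05) and KIAA2026 (0.29 ± 0.05, 4.87e-05) were higher in the IRF1shRNA samples. MLANA was also called higher (0.30 ± 0.12, edgeR adjusted p = 0.0473), a call lost under DESeq2 (0.0673) and without control replicate 2 or 3 or IRF1shRNA replicate 1 or 2 (adjusted p of 0.0598 to 0.232). JAK2, a kinase of the IFN receptors, had 51.0 CPM in the control and 50.8 CPM in the IRF1shRNA samples (log2 fold change -0.01 ± 0.05, 95% interval -0.11 to 0.10, edgeR adjusted p = 0.932), with a sign that flipped under other scalings. PLGRKT, the nearest tested protein-coding gene on the other side of CD274, had a log2 fold change of 0.08 ± 0.07 (edgeR adjusted p = 0.333). The window and these neighbours were chosen after their values were seen.

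**Figure D3:**
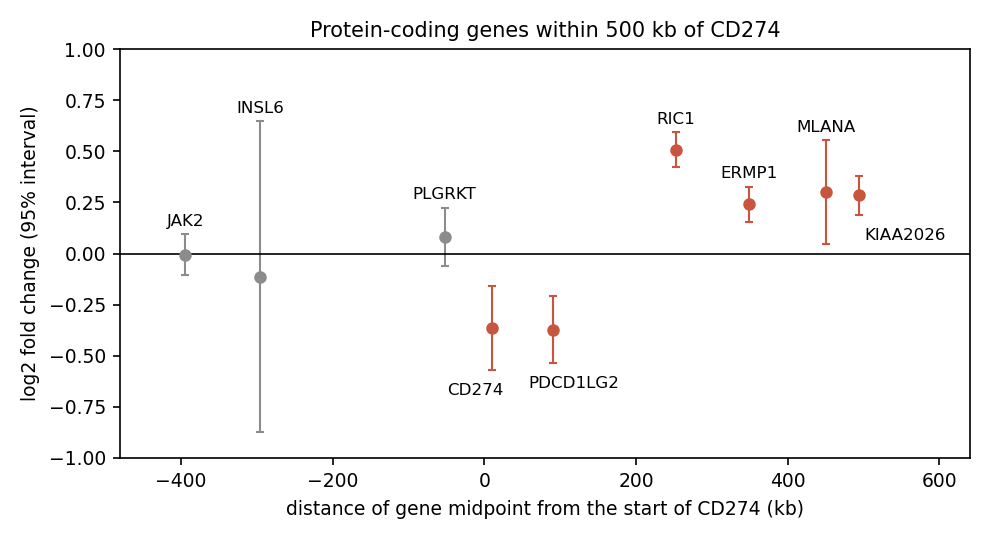
Log2 fold change with its 95% interval (vertical axis) of the tested protein-coding genes around CD274, placed by the distance of their midpoint from its start in kb, with red marking an adjusted p below 0.05. CD274 and PDCD1LG2 lie below 0, RIC1, ERMP1, MLANA and KIAA2026 lie above 0, and the intervals of JAK2, INSL6 and PLGRKT include 0.

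CD276 (B7-H3), the most abundant B7 family member here per length, showed a larger decrease. It measured 55.7, 58.2 and 68.8 CPM in the control and 39.8, 35.7 and 42.2 CPM in the IRF1shRNA samples, so that the lowest control sample lay well above the highest IRF1shRNA sample. The mean went from 60.9 ± 6.93 to 39.2 ± 3.27 CPM, or 64.4% of control (log2 fold change -0.63 ± 0.07, 95% interval -0.78 to -0.48, edgeR adjusted p = 8.96e-07). The gene spans chr15:73683966-73714518 on the plus strand.

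ICOSLG, the costimulatory ligand, had the lowest level and the largest fitted change among the 7. It measured 1.37, 1.30 and 1.38 CPM in the control and 0.810, 0.721 and 0.529 CPM in the IRF1shRNA samples, from 159 to 206 counts and 40 to 102 counts per library. The mean went from 1.35 ± 0.046 to 0.686 ± 0.144 CPM, or 50.8% of control (log2 fold change -0.996 ± 0.19, 95% interval -1.39 to -0.60, edgeR adjusted p = 2.34e-04). The IRF1shRNA samples varied among themselves, and the log2 fold change ranged from -1.17 without IRF1shRNA replicate 1 to -0.80 without IRF1shRNA replicate 3. ICOSLG (chr21:44217014-44240966, minus strand) shares 33.7% of its 50-base stretches with a near-identical annotated copy, FP565260.3, so its counts are uncertain where reads could fall to either. For the other 9 ligands the share with any other gene was at most 3.14%.

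PVR and NECTIN2, which are among the ligands of TIGIT, did not pass the threshold. PVR measured 144.2, 144.3 and 152.3 CPM in the control and 155.4, 154.0 and 157.0 CPM in the IRF1shRNA samples, so that each IRF1shRNA sample lay above each control sample by a small margin. Its log2 fold change was 0.08 ± 0.04, with a 95% interval of -0.006 to 0.17 (edgeR adjusted p = 0.114). It passed the threshold under upper quartile scaling, library size scaling, a filter of 1 CPM in 3 samples and without control replicate 3, with log2 fold changes of 0.11 to 0.13. NECTIN2 measured 68.2, 71.6 and 81.2 CPM in the control and 75.4, 71.7 and 73.2 CPM in the IRF1shRNA samples, and the groups overlapped. Its log2 fold change was -0.01 ± 0.06 (95% interval -0.12 to 0.11, edgeR adjusted p = 0.9496), and the sign flipped under other scalings and filters. The ratio of PVR to NECTIN2 was 2.001 ± 0.121 in the control and 2.12 ± 0.049 in the IRF1shRNA samples (exact permutation test, two-sided, p = 0.2, adjusted p = 0.267). PVR and NECTIN2 both lie on chromosome 19, at chr19:44643798-44663583 and chr19:44846175-44889228.

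CD47 was the ligand with the tightest replicates. It measured 227.0, 225.5 and 222.6 CPM in the control and 181.3, 183.2 and 180.2 CPM in the IRF1shRNA samples, with a gap between the groups far wider than the spread within either. The mean went from 225.0 ± 2.24 to 181.6 ± 1.51 CPM, or 80.7% of control (log2 fold change -0.31 ± 0.04, 95% interval -0.39 to -0.23, edgeR adjusted p = 3.63e-06). Set against PVR within the same library, a measure that needs no scaling, CD47 went from 1.53 ± 0.062 to 1.17 ± 0.021 and CD276 from 0.414 ± 0.034 to 0.252 ± 0.019. Both ratios were lower in all 3 IRF1shRNA samples than in any control sample, at the smallest p this design allows (exact permutation test, two-sided, p = 0.1, adjusted p = 0.2). These ratios show unequal change within the libraries and do not say which gene of a pair changed.

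**Figure D4:**
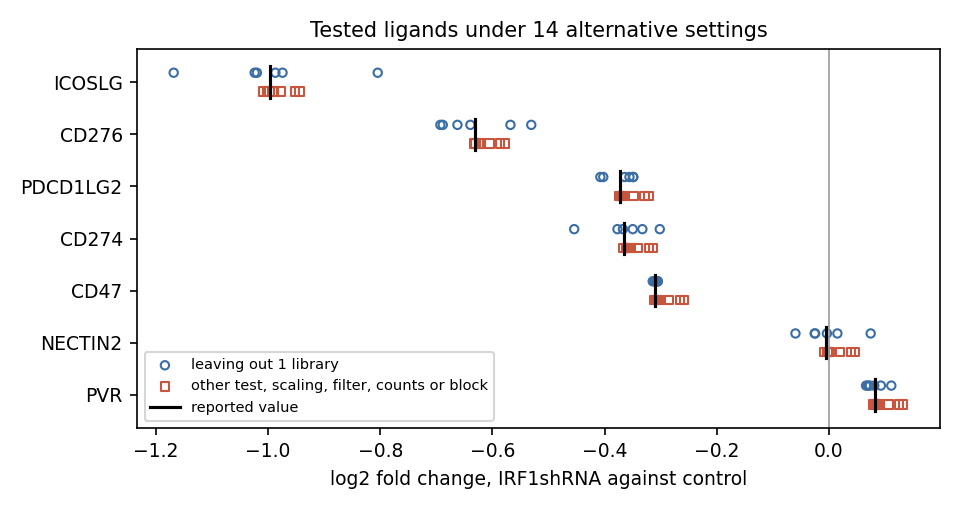
Log2 fold change of the 7 tested ligands under 14 alternatives, with circles for fits that leave out 1 library, squares for another test, scaling, filter, counting or block, and a vertical bar at the reported value. The values of ICOSLG, CD276, PDCD1LG2, CD274 and CD47 stayed below 0 throughout, those of PVR stayed above 0, and those of NECTIN2 fell on both sides.

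A wider list held 25 other checkpoint and costimulatory ligands, of which 20 were tested. In the IRF1shRNA samples 12 of these were downregulated, 2 were upregulated and 6 fell short of the threshold. Of the 12, 8 were past 2-fold, and the median log2 fold change of the 20 was -0.66. Over all genes tested, 26.4% were called lower, 24.1% higher and 7.86% past 2-fold in either direction, with a median of -0.0024. The 8 included genes with far larger changes than any of the 10 ligands above. CD24, a ligand of the inhibitory receptor SIGLEC10 on macrophages, measured 96.0, 98.1 and 95.9 CPM in the control and 15.5, 15.8 and 16.4 CPM in the IRF1shRNA samples. Its log2 fold change was -2.60 ± 0.04 (edgeR adjusted p = 1.53e-16), and 4.95% of its 50-base stretches are shared with other genes. TNFRSF14, which binds BTLA, went from 0.688 ± 0.280 to 0.124 ± 0.026 CPM (log2 fold change -2.50 ± 0.35, edgeR adjusted p = 1.15e-05). That change rests on few counts, with 59, 71 and 150 in the control and 12, 8 and 22 in the IRF1shRNA samples.

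The butyrophilins of the BTN3A group, which present phosphoantigen signals to gamma delta T cells, fell together. BTN3A3 had a log2 fold change of -1.71 ± 0.09 (edgeR adjusted p = 1.26e-10), BTN3A1 of -1.44 ± 0.09 (5.04e-10) and BTN3A2 of -1.38 ± 0.08 (1.96e-10). They share 7.22% to 14.7% of their 50-base stretches with other genes, which makes the split between them less certain. HLA-E, the ligand of NKG2A on natural killer cells, measured 26.4, 36.0 and 34.1 CPM in the control and 12.5, 13.5 and 13.1 CPM in the IRF1shRNA samples (log2 fold change -1.31 ± 0.09, edgeR adjusted p = 2.61e-09). NECTIN1 went from 30.3 ± 1.08 to 14.9 ± 0.868 CPM (log2 fold change -1.01 ± 0.06, edgeR adjusted p = 5.85e-10). CEACAM1, a homophilic inhibitory molecule, went from 0.364 ± 0.062 to 0.152 ± 0.093 CPM (log2 fold change -1.13 ± 0.39, edgeR adjusted p = 0.0214), a call lost without control replicate 1 or 3 or IRF1shRNA replicate 2 or 3, with adjusted p of 0.0511 to 0.0747. The 2 that rose, chosen here after their values were seen, were CD70, the ligand of CD27, from 46.9 to 58.0 CPM (log2 fold change 0.31 ± 0.06, edgeR adjusted p = 2.42e-04), and NECTIN3, from 55.3 to 65.5 CPM (0.24 ± 0.05, 6.00e-04).

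**Figure D5:**
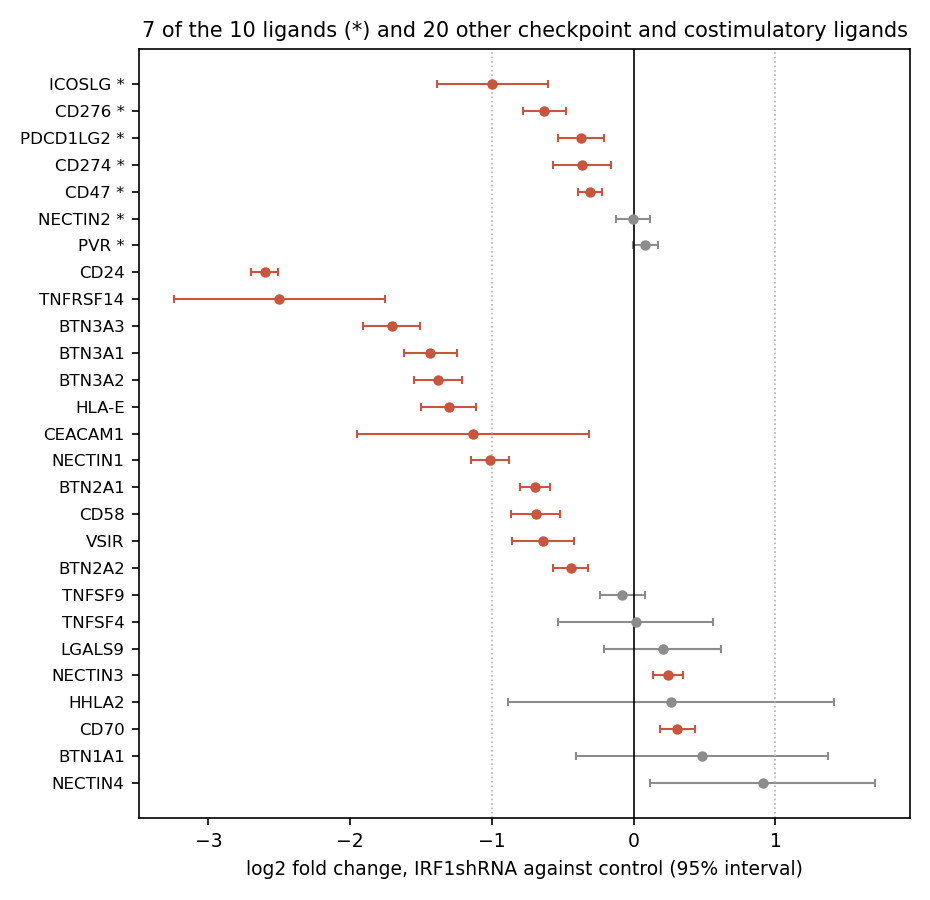
Log2 fold change with its 95% interval of the tested ligands, the 7 of the 10 and the 20 of the wider list, with colour marking an adjusted p below 0.05 and intervals that are not adjusted. CD24 (-2.60) and TNFRSF14 (-2.50) lie lowest, ICOSLG (-0.996) is the lowest of the 10 ligands, and CD70 (0.31) and NECTIN3 (0.24) are the 2 called higher.

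Genes known to control CD274, listed without regard to whether they raise or lower it, did not move in 1 direction. Of 23 listed, 22 were tested, with 9 upregulated, 9 downregulated, 4 short of the threshold and a median log2 fold change of -0.02, beside the same 24.1% higher and 26.4% lower over all genes. Those past 2-fold included STAT2 and IRF9, transcription factors of the type I IFN response. STAT2 went from 64.1 ± 4.84 to 31.9 ± 1.58 CPM (log2 fold change -1.01 ± 0.06, edgeR adjusted p = 1.66e-10) and IRF9 from 4.69 ± 0.113 to 1.71 ± 0.305 CPM (-1.43 ± 0.12, 2.60e-08).

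The receptors of these ligands belong mostly to immune cells, and 7 of 14 passed the filter, with 3 upregulated, 2 downregulated, 2 short of the threshold and a median log2 fold change of 0.10, again beside 24.1% higher and 26.4% lower over all genes. PDCD1, which encodes PD-1, had no count in any sample. SIRPA, the CD47 receptor, was present at 53.6 to 59.8 CPM in all 6 samples, with a log2 fold change of -0.05 ± 0.05 (edgeR adjusted p = 0.366). SIRPG, which also binds CD47, went from 1.54 ± 0.358 to 0.581 ± 0.081 CPM (log2 fold change -1.43 ± 0.21, edgeR adjusted p = 1.50e-05). CD160 went from 1.999 ± 0.310 to 3.12 ± 0.099 CPM (0.65 ± 0.12, edgeR adjusted p = 2.71e-04). HAVCR2 (TIM-3) went from 0.050 ± 0.009 to 0.162 ± 0.021 CPM (1.64 ± 0.48), resting on 5 to 23 counts per library. With 5, 7 and 8 counts in the control, HAVCR2 passed the filter through the IRF1shRNA samples alone. Its place among the 3 upregulated receptors therefore carries no weight.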

How the data were processed

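Total RNA was isolated with Trizol from BT-549 cells cultured in triplicate, and libraries were made with TruSeq Stranded mRNA kits. The table that the authors deposited holds raw, unnormalized counts for each gene symbol. The submitters' processing notes name CASAVA 1.8.2, STAR 2.7.9a, featureCounts, DESeq2 1.24.0 and GRCh38.p7. The annotation release and the settings for strand and multiply mapped reads are not given in the sources used here.

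Counts were tested across all genes with edgeR 4.0.16 (R 4.3.3; quasi-likelihood, TMM scaling, filterByExpr with a minimum count of 10, group as the single factor) with Benjamini-Hochberg adjustment over 18851 genes and a threshold of 0.05. DESeq2 1.42.0 was an alternative. The script was tested on simulated data. Standard errors are the log2 fold change divided by the square root of F. P-values measure the spread between 3 samples per group, which may be technical, and floors of 3 counts cover counting error only. Exon lengths, positions and shared 50-base stretches came from GENCODE release 29, and promoters from RefSeq. Among values of 2 to 11 counts, 72.1% to 75.2% were even, so read mates seem to have been counted separately, and halved counts were an alternative.

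The 10 ligands and the gene lists were chosen with earlier results of these data known. The text names all 10 ligands, IRF1 and, of the other lists, genes with an adjusted p under 0.05 and over 2-fold and the 3 with the smallest adjusted p. Some genes that meet this rule or belong to these lists are not reported here. Genes of the CD274 neighbourhood, SIRPA, PTPRC, CD70, NECTIN3, PDCD1 and the cell line markers were named after their values were seen.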

Additional observations from a re-analysis of the deposited data

How the results depend on the processing

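The 5 called ligands (CD274, PDCD1LG2, CD276, ICOSLG and CD47) kept direction and call under all 14 alternatives, with the lowest and highest adjusted p of CD274 at 0.000718 and 0.0345. Of 112 alternative values of the ligands and IRF1, 101 kept direction and side of the threshold, 4 newly passed it and 7 changed sign. NECTIN2 changed sign with DESeq2 size factors (0.0014), upper quartile scaling (0.039), library size scaling (0.047), a filter of 1 CPM in 3 samples (0.020) and halved counts (0.0013), and ranged from -0.060 to 0.074 on leaving out 1 library. JAK2 changed sign with the first 4 of these (0.0014, 0.038, 0.044 and 0.018) and ranged from -0.033 to 0.024 on leaving out 1 library. PVR passed the threshold with upper quartile scaling (0.13, edgeR adjusted p = 0.0158), library size scaling (0.13, 0.0102) and the 1 CPM filter (0.11, 0.0331), and ranged from 0.066 to 0.11 on leaving out 1 library, passing without control replicate 3 (0.0364). The count of upregulated ligands was then 1 in each case (0 to 1 on leaving out 1 library). The median of all genes moved from -0.0024 to 0.041 and 0.049 under the upper quartile and library size scalings.

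The ligands downregulated over 2-fold numbered 1, ICOSLG, with halved counts and with the replicate block, and 0 to 1 on leaving out 1 library. The 1 CPM filter, which tests fewer genes, left 5 other ligands down over 2-fold and 0 receptors up over 2-fold, and halved counts also left 0 such receptors. On leaving out 1 library, 0 to 1 other ligands rose over 2-fold and 1 to 2 receptors were downregulated, with 1 without control replicate 1, IRF1shRNA replicate 1 or IRF1shRNA replicate 2. PTPRC ranged from -0.62 without IRF1shRNA replicate 2 to 0.043 without IRF1shRNA replicate 3, where its sign changed. CD163 passed with library size scaling (0.63, edgeR adjusted p = 0.0487). Where no value shows it, the cause was not tested. Same-numbered samples had correlations of -0.054, 0.044 and 0.073 between their deviations, so the numbers were not taken as pairs. With the replicate block CD274 had a log2 fold change of -0.36 (edgeR adjusted p = 0.00705), 5 ligands were downregulated and none was upregulated. The depth limits VTCN1, CD80 and CD86, which cannot be compared.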
